A study of Mus musculus with 3 samples.

Results

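The cell cycle genes examined here were 44 named genes of 21938 protein-coding genes in the GENCODE M21 basic annotation of GRCm38: 5 D-type cyclins and their kinases, 4 genes for cyclins and a kinase of S phase, 7 inhibitors, 3 pocket proteins, 8 E2F factors, 6 subunits of the MCM helicase and 11 mitosis genes. They were taken by name, without use of a measured value but with earlier results of these data known. All 44 were found in the annotation. For each gene the peaks within 1500 bases of a start site, and those from 10 kb before the gene to its end, were read in each library of sorted hair follicle stem cells (HFSCs).

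HFSCs rest for most of the hair cycle. During rest, D-type cyclins and Cdk4 or Cdk6 are held back by inhibitors of the Cdkn families, the pocket proteins Rb1, Rbl1 and Rbl2 stay bound to E2F factors, and the genes for DNA replication and mitosis are kept low by complexes that sit on their promoters. Accessible promoters and low transcript levels can go together, and accessibility is what the assay measures.

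Accessibility was read by Omni-ATAC-seq, where a transposase (Tn5) tags DNA that nucleosomes leave free, in untreated HFSCs sorted as CD34+CD49f+Sca-1- from telogen dorsal skin of mice aged 6 months. Wild-type mice gave 1 library (Msx2-WT, here WT). Mice homozygous for a germline knockout of the homeobox factor Msx2 gave 2 (Msx2-KO replicates 1 and 2, here KO1 and KO2). The knockout is constitutive and carries a neo cassette before exon 2 of Msx2, so every cell of the animal and not the stem cells alone lacks the gene. The wild-type animals were hair-cycle-matched C57BL/6J mice, and how many animals went into each library is not given in the sources used here. The labels place the WT library in another batch than both KO libraries, and effects of batch and of genotype cannot be told apart. Since WT is 1 library, genotypes were not tested against each other, and every difference below is a description of these 3 libraries. Peaks of KO1 and of KO2 are named with cKO in their own files, and for KO1 with a library number that differs from its label. The labels were followed.

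The libraries differed in depth. The commonest background was 1.74 tags in WT, 0.476 in KO1 and 0.790 in KO2, and the fewest tags at which a summit passed the limit of −log10 q above 2 were 9, 5 and 6. Promoter peaks of 12 genes listed as HFSC markers, among them Lhx2 and Sox9, were present for 9, 9 and 11 genes. The list also holds genes not specific to HFSCs, such as Krt14 and Itga6. The latter encodes CD49f, which the study used to sort epidermal stem cells as well. Nfatc1 had none in any library, Lgr5 and Tbx1 none in WT, and Krt15 and Cd34, the latter a marker of the sort, none in KO1. Of markers of other cells, 3, 2 and 3 of 6 for melanocytes, 2, 1 and 3 of 5 for fibroblasts, 0, 0 and 1 of 4 for endothelium and 0 of 6 for leukocytes in each library had a promoter peak. The melanocyte counts include Pmel in all 3 libraries. Its promoter is shared with the member Cdk2, so those tags cannot be assigned to 1 of the pair. At Msx2 itself the promoter peak had 15, 9 and 16 tags, which checks nothing because an inserted cassette need not close the promoter.

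A promoter peak here is a summit past that limit within 1500 bases of a start of a protein-coding transcript. Its relative level is the tag number at the highest such summit divided by the library median over the 7739 genes with a promoter peak in all 3 libraries, which was 29 tags in WT, 13 in KO1 and 29 in KO2. A relative level of 1 is thus the median of promoters open in all 3 libraries, not of every open promoter. Medians of a gene group cover its genes with a peak. Tag numbers are given in the order WT, KO1 and KO2 unless a library is named, and intervals are exact 95% Poisson intervals that cover counting error only.

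Cell cycle promoters carry known sequence elements, which were searched on both strands in windows from 250 bases before to 50 after the outermost start that RefSeq gives for a gene on GRCm38.p6. The E2F site was searched as TTTCCCGC, TTTGGCGC, TTTCGCGC or TTTGCCGC, the cell cycle homology region (CHR), to which the MuvB core of the DREAM complex binds, as TTTGAA, and the CCAAT box, to which NF-Y binds, as CCAAT. Windows were matched for 33 members and not for Ccnd1, Ccnd2, Ccne2, Ccna2, Cdkn1c, Rb1, E2f4, E2f5, Mcm4, Foxm1 and Aurkb. An E2F site was in 4 of 5 windows of the MCM helicase, and it was in 1 of 9 windows of mitosis genes. Among all 16522 protein-coding genes with a window, 2.95% held one. A CHR was in 7 of 9 windows of mitosis genes, all 7 of them with a CCAAT box, compared with 15.7% and, for both elements together, 6.46% of all genes. Of the 6 inhibitors with a window, 1 held an E2F site (Cdkn2a), 1 a CHR (Cdkn2b) and none a CHR with a CCAAT box. A match is a description of the letters only.

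The 250 bases before a start are printed for 4 genes to set these layouts side by side, 5′ to 3′ on the strand of the gene, with E2F sites, CHRs and CCAAT boxes in capitals. Mcm5 (chr8:75109259-75109508, plus strand), a licensing gene, has 2 overlapping E2F sites from -153 and -149 and CCAAT boxes at -77 and -22, but no CHR. Top2a (chr11:99024190-99024439, minus strand) and Mki67 (chr7:135716380-135716629, minus strand), both mitosis genes, have CHRs and CCAAT boxes and no E2F site. In Top2a the CHR at -179 lies among the CCAAT boxes and that at -23 after them. In Mki67 the CHRs, at -116 and -98, come after the CCAAT boxes. Cdkn1a (chr17:29093519-29093768, plus strand), an inhibitor whose peak differed between the libraries, has none of the 3 elements before its inner start.
Mcm5: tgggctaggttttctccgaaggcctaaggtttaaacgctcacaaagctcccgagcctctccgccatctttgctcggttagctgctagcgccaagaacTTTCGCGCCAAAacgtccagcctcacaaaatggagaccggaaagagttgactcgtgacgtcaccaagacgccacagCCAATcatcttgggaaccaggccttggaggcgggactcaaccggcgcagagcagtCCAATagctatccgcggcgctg
Top2a: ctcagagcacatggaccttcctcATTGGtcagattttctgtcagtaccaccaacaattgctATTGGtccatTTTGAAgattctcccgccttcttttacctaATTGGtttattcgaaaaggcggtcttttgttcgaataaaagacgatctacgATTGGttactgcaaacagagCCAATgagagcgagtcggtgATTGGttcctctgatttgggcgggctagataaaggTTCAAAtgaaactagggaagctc
Mki67: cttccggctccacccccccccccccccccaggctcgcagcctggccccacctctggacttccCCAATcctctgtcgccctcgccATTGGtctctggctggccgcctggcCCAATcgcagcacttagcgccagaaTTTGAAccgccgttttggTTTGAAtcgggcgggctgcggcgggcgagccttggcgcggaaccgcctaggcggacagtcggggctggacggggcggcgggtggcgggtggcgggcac
Cdkn1a: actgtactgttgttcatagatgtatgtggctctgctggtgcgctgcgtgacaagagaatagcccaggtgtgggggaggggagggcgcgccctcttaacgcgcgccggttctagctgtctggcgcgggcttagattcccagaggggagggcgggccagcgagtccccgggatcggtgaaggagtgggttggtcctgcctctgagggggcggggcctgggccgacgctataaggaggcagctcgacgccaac

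Most cell cycle genes had open promoters in these resting cells. A promoter peak was present for 36 of the 44 members in WT, 30 in KO1 and 40 in KO2, which is 81.8%, 68.2% and 90.9%, compared with 47.2%, 38% and 53.7% of all protein-coding genes. All 3 libraries had the peak at 29 members, whereas 35.3% of all genes did. The median relative level of members with a peak was 1.00, 1.12 and 0.83. Their median percentiles among all promoter peaks of the same library were 61.1, 57.5 and 56.6. Ccnd1 and E2f2 had none in any library at the GENCODE starts. A start that only RefSeq gives for E2f2, 8388 bases from the outer GENCODE start, did have a peak in all 3 libraries, with 35, 8 and 33 tags, and counting it raises the numbers to 37, 31 and 41. That start was added after the data were seen. Of all genes with a promoter peak, 22.2%, 24.0% and 20.6% had a summit within 1500 bases of the start of another gene as well. Of the 36, 30 and 40 members with a peak, 6, 6 and 5 did. These were the summits of Cdk2 with Pmel, E2f4 with Exoc3l (not in KO2), Mcm4 with Prkdc, Mcm7 with Ap4m1, Foxm1 with Rhno1 and Aurka with Cstf1, and their tags cannot be assigned to 1 of the pair.

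**Figure D1:**
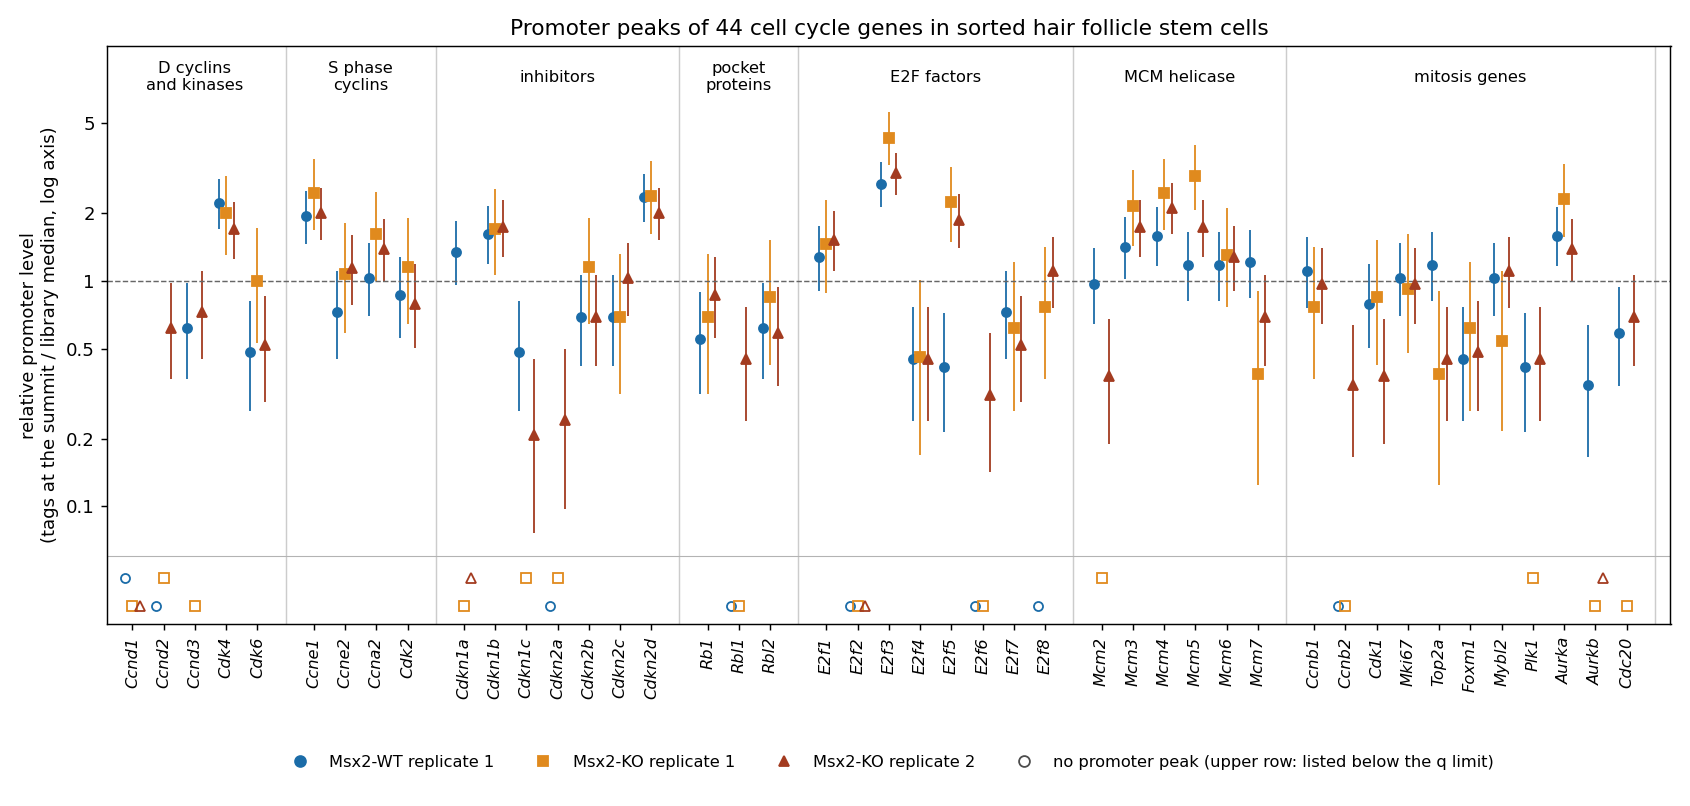
Relative promoter level (tags at the highest promoter summit over the library median, log axis) of the 44 members by role in WT (circles), KO1 (squares) and KO2 (triangles), with exact 95% Poisson intervals; the dashed line is the median of shared promoters, and open symbols at the bottom mark libraries without a promoter peak, the upper row of them listed below the q limit. E2f3 is the highest member in every library, E2f5 is lower in WT than in both KO libraries, Top2a and Mcm7 are higher, and Cdkn1a has a filled symbol in WT alone.

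The inhibitors spread from well open to nearly closed promoters. Cdkn2d, which encodes p19 INK4d and binds Cdk4 and Cdk6, was the highest of them, with 68 tags in WT, 31 in KO1 and 58 in KO2, or relative levels of 2.34, 2.38 and 2.00. Cdkn1b, which encodes p27 and holds Cdk2 inactive in resting cells, followed with 47, 22 and 50 tags, or 1.62, 1.69 and 1.72. In KO1 Cdkn1b was at the 77.9th percentile of all promoter peaks, the lowest place of either gene in any library. The intervals of the relative levels overlapped between the 3 libraries for both. Cdkn2b, encoding p15, had 20, 15 and 20 tags, and Cdkn2c, encoding p18, had 20, 9 and 30. Both were close to or below a relative level of 1.

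At the low end, Cdkn1c, which encodes p57 and is imprinted, had 14 tags in WT (interval 7.65 to 23.5), 5 below the q limit in KO1 and 6 in KO2 (interval 2.20 to 13.1). Its relative levels were 0.48, 0.38 and 0.21. Cdkn2a, which encodes p16 and p19 ARF and is commonly silent in young tissue, was not listed in WT and had 5 tags below the limit in KO1 and 7 in KO2. That summit, with a relative level of 0.24 and a −log10 q of 2.88, was at the 6.29th percentile of the promoter peaks of its library.

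Cdkn1a, which encodes p21, a target of p53 that blocks cyclin-dependent kinases, was the inhibitor that separated the libraries. In WT a summit of 39 tags (interval 27.7 to 53.3) lay at -40 from the inner start at 29093769 on chromosome 17. The gene runs from 29090976 to 29100727. No summit was listed at that start in KO1, and KO2 had 6 tags (interval 2.20 to 13.1) with a −log10 q of 0.93, which is below the limit. At the relative level of WT, 1.34, 17.5 and 39.0 tags would stand in the KO libraries, above the fewest tags that passed the limit there. A second summit, 1721 bases after the inner start in WT, was listed in all 3 libraries, with 46 tags in WT (interval 33.7 to 61.4), 5 in KO1 (interval 1.62 to 11.7) and 13 in KO2 (interval 6.92 to 22.2). Its relative level of 1.59 in WT was above the 0.38 and 0.45 of the KO libraries, and the intervals of the relative levels, 1.16 to 2.12 against upper bounds of 0.90 and 0.77, did not overlap. Divided by the background of each library instead, the summit stood at 26.5 in WT, 10.5 in KO1 and 16.5 in KO2. A further summit, at -6160 from the inner start, had 13 tags and a −log10 q of 5.38 in WT and was not listed in either KO library. At the outer start of the gene no library had a peak.

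Genes open at the promoter in WT alone were 2.11% of all genes, and those open in KO1 and KO2 but not WT 2.33%. Among the members these were 2 (Cdkn1a and Aurkb) and 1 (E2f8). WT shared the peak with KO2 but not KO1 at 5 members (Ccnd3, Cdkn1c, Mcm2, Plk1 and Cdc20), beside 9.65% of all genes, and with KO1 but not KO2 at 0, beside 0.137%. KO2 alone had it at 5 (Ccnd2, Cdkn2a, Rbl1, E2f6 and Ccnb2), beside 6.49%, and KO1 alone at 0, beside 0.242%. KO1 was the shallowest library. With any overlap of the peak interval as the rule, Cdkn1a no longer counted as a WT promoter alone, because the peak of KO2 runs over both summits. Markers of the interfollicular epidermis moved with the WT library as well. Promoter peaks were present for 3 of 6 in WT, with 10 to 15 tags and a summed relative level of 1.28, and for 0 of 6 in each KO library. The 3 were Ly6a, which encodes the Sca-1 that the sort selects against, Krt10 and Ivl, while Krt1, Lor and Flg had none anywhere. Their part in the result at Cdkn1a was not tested.

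**Figure D2:**
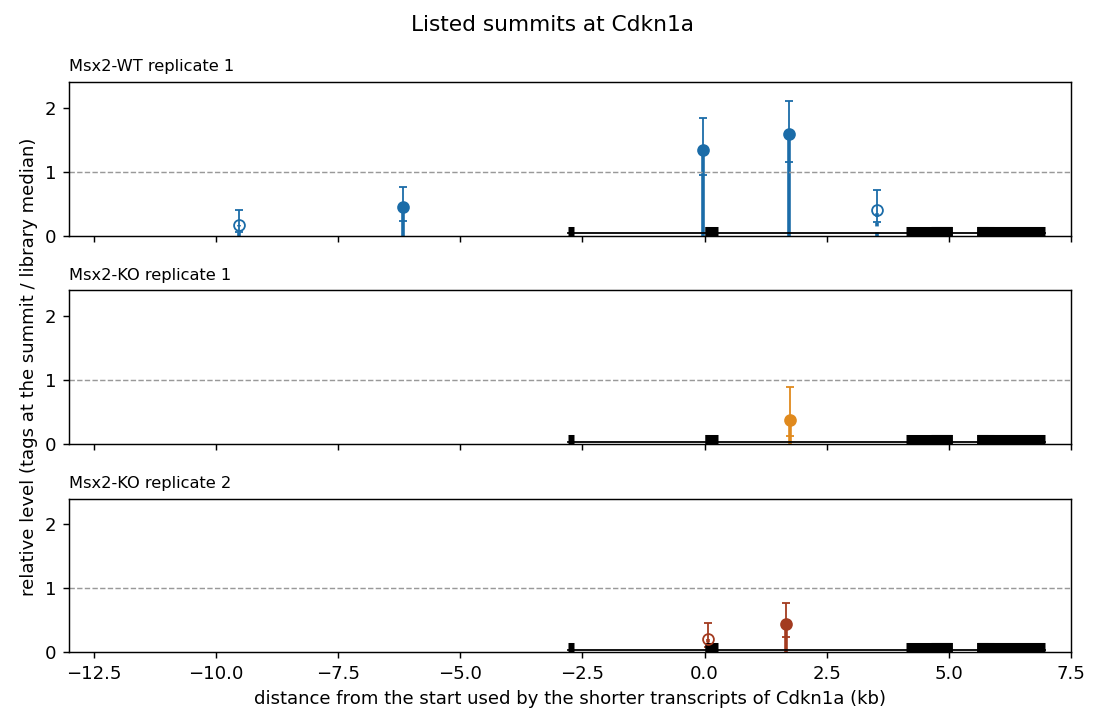
Listed summits at Cdkn1a by distance from its inner start (kb) in the 3 libraries, as relative level (tags over the library median) with exact 95% Poisson intervals; filled symbols passed the q limit, open ones did not, and black bars are exons. The summits at the inner start and 1721 bases after it stand at 1.34 and 1.59 in WT, and no KO summit is above 0.45.

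Among the D-type cyclins and their kinases, which take the first step out of rest, both kinases had a promoter peak in every library and no cyclin did. The state of the cyclins varied with the library and the window. With 3000 bases around starts every cyclin counted as open in WT and KO2, whereas Ccnd1 and Ccnd2 did not in KO1. Cdk4 had 64, 26 and 49 tags, with relative levels of 2.21, 2.00 and 1.69. Cdk6 had 14, 13 and 15 tags, with relative levels of 0.48, 1.00 and 0.52. Ccnd1 had a single summit of 11 tags below the limit in WT (−log10 q of 1.71) and nothing listed in the KO libraries. Its nearest region past the limit, at -1793 from the start in WT, had 12 tags in WT and 12 in KO2. Ccnd2 was not listed in WT, had 9 tags below the limit in KO1 and had 18 in KO2, where the −log10 q was 3.79. A region just outside its window, at -1523 from the start in WT, had 27 tags there and 26 in KO2, so its state depends on the window. Ccnd3 had 18 tags in WT and 21 in KO2 and was not listed in KO1. That peak lay at an inner start, with its summit 88454 bases from the outer one in WT, which had none.

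The pocket proteins, which bind E2F factors in resting cells, had relative levels below 1 wherever they had a peak. Their median percentiles among promoter peaks were 29.3 in WT, 36.5 in KO1 and 39.5 in KO2. Rb1 had 16, 9 and 25 tags, with relative levels of 0.55, 0.69 and 0.86, and Rbl2, encoding p130, the pocket protein typical of resting cells, had 18, 11 and 17. Rbl1, encoding p107, which rises as cells enter the cycle, had 13 tags in KO2 and was listed in no other library.

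The E2F factors covered the whole range. E2f3 was the highest member in every library, with 78 tags (interval 61.7 to 97.3), 56 (42.3 to 72.7) and 87 (69.7 to 107), at the 98.5th to the 98.9th percentile. E2f1, an activator of S phase genes, had 37, 19 and 44 tags, with relative levels of 1.28, 1.46 and 1.52. E2f4, the factor that partners p130 in resting cells, had 13, 6 and 13 tags, or 0.45, 0.46 and 0.45. E2f7, an atypical repressor, had 21, 8 and 15 tags. E2f6 had 9 tags in KO2 alone.

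Of this family, E2f5 was lower in WT and E2f8 was open in both KO libraries alone. E2f5 was 1 of 29 members compared that was at least 1.5-fold lower, beside 14.2% of all promoters compared. E2f8 was 1 of 44 members open in both KO libraries alone, beside 2.33% of all genes. Neither count stands above the background. E2f5 (chromosome 3, from 14578641 to 14606309), which like E2f4 works with pocket proteins as a repressor, had 12 tags in WT (interval 6.2 to 21.0), 29 in KO1 (interval 19.4 to 41.6) and 54 in KO2 (interval 40.6 to 70.5). Its relative level was 0.41 in WT and 2.23 and 1.86 in the KO libraries, and the log2 difference to their mean was -2.30. The order held on all 3 scales tried, with a log2 difference of -3.22 for tags over background and -1.13 for the deposited fold over its library median. E2f8 (chromosome 7, from 48866429 to 48881596), an atypical repressor like E2f7, had 10 tags in KO1 and 32 in KO2 at an inner start, whereas nothing was listed in WT. At the relative levels of the KO libraries, 22.3 and 32.0 tags would stand in WT, where the fewest tags that passed the limit were 9. That number does not suffice at every site, since 12 tags at Cdkn1a in WT had a −log10 q of 0.37. E2f8 counted as open in both KO libraries alone under every alternative tried.

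The cyclins and kinase of S phase were open in every library. Ccne1, which encodes a cyclin E that activates Cdk2, had 56, 32 and 58 tags, and Ccne2 had 21, 14 and 33. Ccna2 had 30, 21 and 40 tags and Cdk2 25, 15 and 23, the latter at the promoter shared with Pmel. The group had relative levels from 0.72 to 1.93 in WT, from 1.08 to 2.46 in KO1 and from 0.79 to 2.00 in KO2.

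The MCM helicase, which is loaded at replication origins before S phase, had the highest median relative level of the 7 role groups in each library, at 1.19, 2.15 and 1.5. Mcm4 had 46, 32 and 61 tags and Mcm3 41, 28 and 50. Mcm6 had 34, 17 and 37. Mcm2 stood apart, with 28 tags in WT (interval 18.6 to 40.5), 5 below the limit in KO1 and 11 in KO2 (interval 5.49 to 19.7), so that its relative level of 0.97 in WT was above the 0.38 of each KO library. Mcm7 (chromosome 5, from 138164583 to 138172422), which shares its promoter with Ap4m1, had 35 tags in WT (interval 24.4 to 48.7), 5 in KO1 (interval 1.62 to 11.7) and 20 in KO2 (interval 12.2 to 30.9).

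At Mcm5, which was picked out after its values were seen, the place of the summit differed. The highest summit in WT had 34 tags and lay at -172 from the outer GENCODE start, inside the 250 bases printed above, and a second one of 19 tags lay at -824. In the KO libraries 1 summit was listed, with 38 tags in KO1 and 50 in KO2, at -692 and -699. In all 3 libraries these summits were in a peak that began at 75108658 on chromosome 8 and ran to the start. The peak therefore covered the same stretch in each, and with a window of 500 bases Mcm5 counted as open in WT alone.

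The mitosis genes had a lower median than the MCM genes, at 0.91, 0.77 and 0.59. Aurka, a spindle kinase, had 46, 30 and 40 tags at the promoter shared with Cstf1. Ccnb1, the cyclin of Cdk1, had 32, 10 and 28 tags, with relative levels of 1.10, 0.77 and 0.97. Mki67, whose protein Ki-67 marks dividing cells, had 30, 12 and 28 tags, with relative levels of 1.03, 0.92 and 0.97. Cdk1 had 23, 11 and 11 tags, Foxm1 13, 8 and 14, and Mybl2 30, 7 and 32. Below these, Plk1 had 12 and 13 tags in WT and KO2 and 4 below the limit in KO1. Cdc20, an activator of the anaphase-promoting complex, had 17 and 20 tags in the same libraries and was not listed in KO1. Ccnb2 had 10 tags in KO2 alone. Aurkb had 10 tags in WT (−log10 q of 2.10) and 7 below the limit in KO2. At the relative level of WT 4.48 tags would stand in KO1, under the fewest that passed the limit there, 5.

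Top2a (chromosome 11, from 98992943 to 99024189), which encodes the topoisomerase that untangles chromosomes before division, was higher in WT. It had 34 tags in WT (interval 23.5 to 47.5), 5 in KO1 (interval 1.62 to 11.7) and 13 in KO2 (interval 6.92 to 22.2). Its relative level of 1.17 was 3.05 times that of KO1 and 2.62 times that of KO2. The CHRs and CCAAT boxes printed above lay inside the peaks of WT and KO2, and the peak of KO1 missed only the CHR at -23. The summits were at -131 from the start in WT, -328 in KO1 and -192 in KO2.

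The inhibitors and the 21 proliferation genes, which are the S phase, MCM and mitosis genes together, overlapped in telogen. A promoter peak was present for 6, 4 and 6 of the 7 inhibitors and for 20, 16 and 20 of the 21 proliferation genes. The median relative level of the inhibitors was 1.02 in WT, 1.42 in KO1 and 0.86 in KO2, beside 1.03, 1.12 and 0.97 for the proliferation genes. The medians cover only genes with a peak. In KO1 they leave out Cdkn1a, Cdkn1c and Cdkn2a among the inhibitors and Mcm2, Ccnb2, Plk1, Aurkb and Cdc20 among the proliferation genes. On the log2 scale the medians differed by -0.02, 0.35 and -0.16, inhibitors minus proliferation genes. These differences changed sign between the 2 KO libraries, with an SD of 0.36 between them, but the medians compared rest on different genes. Within the proliferation genes the MCM helicase and the mitosis genes lay further apart, at median percentiles of 71.6 and 55.2 in WT, 86.6 and 36.6 in KO1 and 83.6 and 39.1 in KO2.

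**Figure D3:**
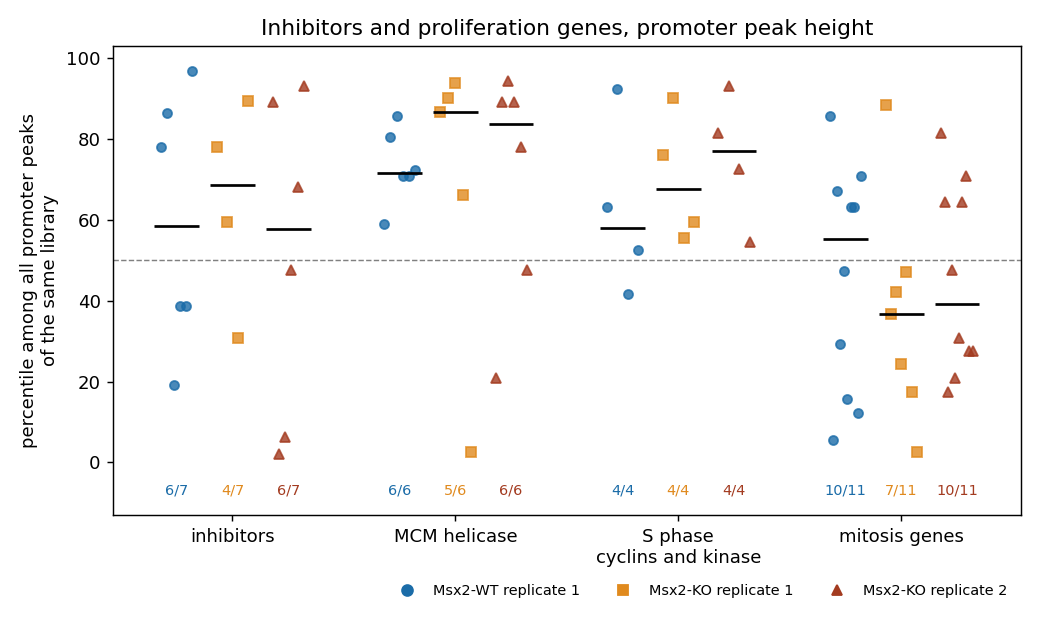
Percentile of each member's promoter peak among all promoter peaks of the same library, by role and library, with medians as black bars and the number of members with a peak of all members printed below. Inhibitors spread from below the 3rd to above the 96th percentile, most MCM genes lie above the 60th percentile, and the median of the mitosis genes lies below the dashed 50th percentile in both KO libraries.

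Of the 29 members with a peak in all 3 libraries, 2 had a relative level at least 1.5-fold higher in WT than in both KO libraries (Mcm7 and Top2a) and 1 at least 1.5-fold lower (E2f5). Among all 7734 promoters compared the shares were 8.48% higher and 14.2% lower. The other 26 members met neither rule. The median log2 difference of the members was -0.18, beside -0.12 for all shared promoters, and the median absolute difference between the 2 KO libraries was 0.34 over all promoters. The directions rest on the scale. Divided by the background of each library, the median shared promoter was lower in WT by a log2 shift of -0.92. On that scale 26 of the 29 members were lower in WT than in both KO libraries. The share of all shared promoters with that order was not counted, so the number is not a result about the members. Mcm7 lay between the KO libraries, and Top2a stayed above both, at 1.86 and 1.19 times their values. With the deposited fold over its library median, Mcm7 and Top2a kept their direction, at 1.80 and 1.38 times and at 2.59 and 1.80 times the KO values. Of the 29 members, 6 held the same order on all 3 scales.

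**Figure D4:**
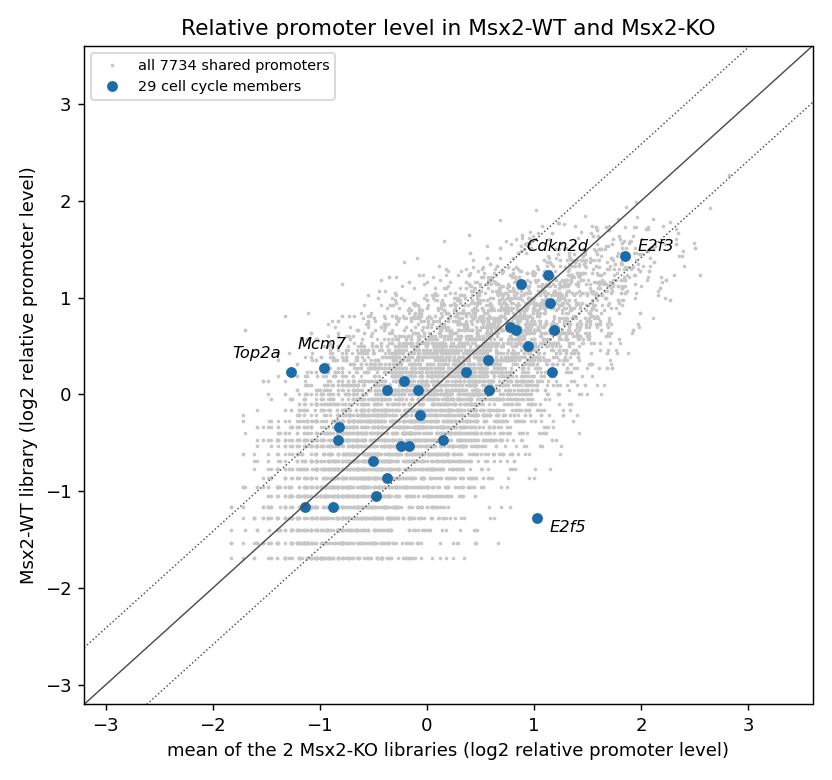
Log2 relative promoter level in WT against the mean of the 2 KO libraries for 7734 shared promoters (grey) and 29 members (blue), with the line of equality and dotted lines at 1.5-fold. The dotted lines refer to the KO mean, so a point outside them need not differ by 1.5-fold from each library. E2f5 lies far below the lower dotted line, and Top2a and Mcm7 lie above the upper one.

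Outside promoters, 40 regions past the limit lay in the windows of 20 members, 19 of them in WT, 12 in KO1 and 32 in KO2. All 3 libraries shared 6 regions, compared with 17.1% of the non-promoter regions of all gene windows, 4 were in both KO libraries alone (7.98% for all) and 6 in WT alone (24.4% for all). KO2 alone had 16 (32.3%), WT with KO2 6 (14.2%), KO1 alone 1 (3.11%) and WT with KO1 1 (0.917%). The D-type cyclins and their kinases held 16 in windows of 376 kb and the E2F factors 12 in 315 kb. The MCM genes (161 kb) and the S phase cyclins and kinase (77.4 kb) held none, and the inhibitors (122 kb) 2. Per 100 kb this is 4.26 for the D-type cyclins and their kinases, 3.81 for the E2F factors and 1.64 for the inhibitors. All gene windows held 1.59 per 100 kb, so the inhibitors were near that rate. Cdk6 alone had 9, mostly inside its long introns. Of these, 3 were in both KO libraries alone. The one with most tags, 89501 bases from the outer start in KO1, on chromosome 5 from 3432767 to 3433971, had 13 tags in KO1 and 27 in KO2, with 9 tags below the limit in WT. The other two had 5 and 8 tags and 5 and 7 tags. A region 94625 bases from the outer start, with 17 tags, was in WT alone.

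The regions shared by all 3 libraries were 2 in the first part of Ccnd3, with 24, 13 and 26 tags and with 36, 10 and 25 tags, 1 near the end of Cdk6 with 18, 8 and 16, 1 in E2f2 at the RefSeq start named above, 1 before Cdkn1b, at -5708 from its start in WT, with 17, 17 and 34, and 1 before Aurkb with 18, 8 and 23. In WT alone and past a −log10 q of 5 were the region before Cdkn1a, 1 in Cdk6, 1 at -4414 from the start of E2f2 with 18 tags, 1 at -2698 from that of Ccnb1 with 16 tags and 1 at -9048 from that of Top2a with 13 tags. The last region in both KO libraries alone lay before Cdc20, with 5 and 7 tags. In an intron of Mybl2 a region of 29 tags was found in KO2 alone. A further 7 regions of the windows lay at promoters of other genes.

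Another 48 genes of the same pathways, listed by their function, were also mostly open. A promoter peak was present for 46 in WT, 40 in KO1 and 48 in KO2, which is 95.8%, 83.3% and 100% beside 47.2%, 38% and 53.7% of all protein-coding genes, with median relative levels of 0.97, 1.15 and 0.97. Of the 16 replication genes, 15, 12 and 16 had a peak, and Cdc6, Cdt1 and Orc1, which load the helicase, and Tyms had none in KO1. Of 22 mitosis and checkpoint genes the numbers were 21, 20 and 22. All 3 libraries had the peak at 40 of the 48, of which 2 (Bub1b and Lin37) were at least 1.5-fold higher in WT and 5 (Dbf4, Cenpe, Ttk, Mdm2 and Skp2) at least 1.5-fold lower. Over all promoters compared the shares were 8.48% and 14.2%, so neither count stands above the background. The genes named from this list were picked after their values were seen.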

How the data were processed

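Omni-ATAC-seq peak lists of 3 libraries (1 Msx2-WT, here WT, and 2 Msx2-KO, here KO1 and KO2) were used. In the authors' pipeline, Trimmomatic trimming preceded BWA-MEM alignment to GRCm38/mm10, mitochondrial reads were dropped, and MACS2 called peaks in each library with duplicates kept. The version of MACS2 is not given in the sources used here. The authors deposited narrowPeak lists, which hold for each summit a fold over background as a ratio, −log10 p and −log10 q values, and a display score, which was not used. The methods name a q limit of 0.01, but the deposited lists run to a p of 0.01, so summits with a −log10 q above 2 were kept. The deposited fold and −log10 p together fix the tag number at a summit. Whole numbers came out for over 99.9% of summits in every library (tolerance 0.002 on −log10 p). No read counts per gene and no total depth were used. The libraries differ in background, and relative levels were therefore taken against each library's own median over the promoters open in all 3 libraries. Intervals cover counting error only.

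Genes and starts were those of GENCODE M21 basic, and the motif windows those of RefSeq (GRCm38.p6), with the outermost window of a gene counted. The calculations used Python 3.11.15, numpy 2.4.6, pandas 2.3.3 and scipy 1.17.1, and were tested on simulated data. The members, lists and alternatives were chosen with earlier results of these data known. All 44 members were named by rule, while the genes named from the list of other pathway genes, and the summits of Mcm5, were picked after their values were seen. With 1 WT library there was no test between genotypes and no p-value.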

Additional observations from a re-analysis of the deposited data

How the results depend on the processing

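Of 128 alternative values, 97 stayed within 1.5 times the reported count or within 1 SD between the KO libraries, 28 moved, and 3 on a percentile scale were compared by sign alone, which they kept. The number of members open in both KO libraries alone, 1, became 3 under a stricter q limit, a −log10 q of 5 or more (Cdk6, E2f5 and E2f8), 3 with every deposited summit and 2 with lists of equal length. Without 1 KO library it ran from 1 to 6, the latter without KO1. The number open in WT alone, 2, became 1 with every deposited summit (Ccnd1), and 1 (Aurkb) with 3000 bases around starts, with any overlap of the peak interval and with the outer start alone. It ran from 2 to 7, the latter without KO2. Members lower in WT by 1.5-fold, 1, became 21 with tags over background and 0 under the stricter q limit, and ran from 4 without KO1 to 8 without KO2. With tags over background the median of all shared promoters was itself lower in WT. Those higher, 2, became 0 with tags over background, 1 with the deposited fold, 1 with a 2-fold limit and 0 under the stricter q limit. Without 1 KO library they were 3 in each case. Peaks outside promoters, 19, 12 and 32, became 53, 26 and 55 with every deposited summit. In WT they became 9 in the gene body alone. With a −log10 q of at least 5 they became 3 in KO1 and 13 in KO2, and 12 in the latter with lists of equal length. The log2 difference of inhibitors minus proliferation genes became -0.58 in WT and -0.16 in KO1 when pocket proteins were counted as inhibitors, -0.58 in WT with the outer start alone and 0.51 in KO2 under the stricter q limit. Its sign turned in 3 cases, -0.16 in KO1, 0.51 in KO2 and -0.01 in KO1 with the deposited fold. The causes were not tested. No paired analysis was made, because WT is 1 library and the sources used here name no pairs. In WT no summit below 9 tags passed the limit, so weaker sites are not seen there. The start added for E2f2 was chosen after seeing the data.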
